A study of Homo sapiens with 2 samples.

Results

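Clade B serpins are the intracellular branch of the serpin family of protease inhibitors. The genes analysed here were the 9 members listed as SERPINB1, SERPINB3, SERPINB4, SERPINB5, SERPINB6, SERPINB7, SERPINB8, SERPINB9 and SERPINB13, chosen by gene symbol from a table of 21382 genes. All 9 were found. The files place 6 of them on chromosome 18 and 3 on chromosome 6 of GRCh38. Expression was measured by RNA-Seq of total RNA from RC77 T/E and MDA PCa 2b, 2 established human lines of prostate cancer (PCa), with 1 library per line. Neither line was treated. MDA PCa 2b cells grew in a modified F-12 medium with serum, cholera toxin, EGF, hydrocortisone and insulin, and RC77 T/E cells in Keratinocyte-SFM with EGF and bovine pituitary extract, so the cell line and its medium cannot be told apart. With 1 library per line there is no replicate error, no test was possible, and every difference below describes these 2 libraries.

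A serpin presents an exposed loop, the reactive centre loop, as bait. A protease that cleaves the loop is trapped in a covalent complex with the serpin, and both molecules are spent. Members of clade B lack the classical signal peptide of secreted serpins and act mainly in the cytoplasm and nucleus, where several protect a cell from its own lysosomal or granule proteases. In stratified and basal epithelia, such as skin, members of the chromosome 18 cluster are known for their roles in barrier formation and keratinocyte survival, and SERPINB5 (maspin) is known from breast and prostate as an epithelial serpin that does not inhibit proteases.

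Levels are given in TPM, a unit that divides reads by transcript length and by the library total, so that levels of genes can be compared per length. In the deposited table many values lacked their decimal mark, which was restored from the deposited mean and standard error, and SERPINB6 is the member for which 2 positions are possible. A level of 1 TPM or more was called expressed. Of the 9 members MDA PCa 2b expressed 1, SERPINB6, against 49.6% of all genes. In RC77 T/E, 8 of the 9 were expressed, against 52.8% of all genes, and SERPINB4 was the member below 1 TPM. Expression in RC77 T/E but not in MDA PCa 2b was found for 7 of 9 members (7.1% of all genes), and the reverse for 0 of 9 (3.93% of all genes). For the ratio between lines, 1 TPM was added to both values and the log2 of RC77 T/E over MDA PCa 2b was taken, which understates the difference of low genes. By this measure 7 of 9 members were higher in RC77 T/E by 2-fold or more (a log2 ratio of 1 or more) and 0 were higher in MDA PCa 2b by as much. Over all genes the shares were 11.3% and 11.4%. Among the 11624 genes whose mean of both lines reached 1 TPM, the comparison set below, they were 19.4% and 20%. Of the 9 members 6 are in this set, and 5 of these 6 were among the 7, while SERPINB3 and SERPINB13, with a lower mean, were counted in the 7 only over all genes. Both were listed at 0 in MDA PCa 2b, where a log2 ratio of 1 or more means 1 TPM or more in RC77 T/E. For SERPINB3 and SERPINB13 the count by ratio thus repeats the count by expression. Of the 7 members, 5 lie on chromosome 18 and 2 on chromosome 6, and 5 were above 0 TPM in both lines. These are bulk libraries, in which fewer cells with a transcript and less transcript per cell cannot be told apart.

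**Figure D1:**
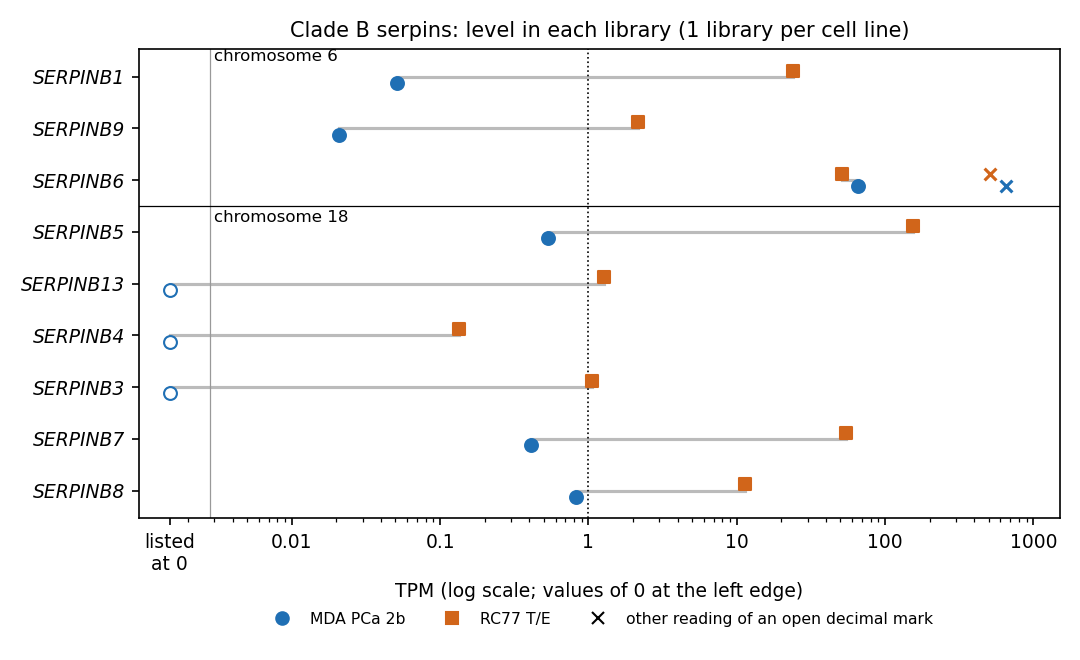
TPM (log axis) of the 9 clade B serpins in MDA PCa 2b (circles) and RC77 T/E (squares), 1 library each, in genomic order within each chromosome. Open symbols at the left edge are values listed at 0, the dotted line marks 1 TPM, and the crosses give the other reading of SERPINB6, whose decimal mark is not determined. In 8 of the 9 rows the square lies to the right of the circle, and SERPINB6 is the row where the symbols lie close together.

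The 6 chromosome 18 members had a summed level of 1.77 TPM for MDA PCa 2b, against 222 TPM for RC77 T/E. In MDA PCa 2b, 0 of the 6 reached 1 TPM, and 3 of them were listed at 0. Their median log2 ratio was 1.97 over all 6. Of these, 3 are in the comparison set, whose own median was -0.15. Over these 3 members, which are also those above 0 in both lines, the median was 5.30. In RC77 T/E the order of levels from the top was SERPINB5, SERPINB7, SERPINB8, SERPINB13, SERPINB3 and SERPINB4, and without replicates no pair of neighbours in this order can be judged against a spread.

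SERPINB5 (ENSG00000206075) encodes maspin and lies at chr18:63476958-63505085, on the plus strand. Its level was 0.536 TPM in the MDA PCa 2b library against 154 TPM in RC77 T/E. The level in RC77 T/E was 287-fold that in MDA PCa 2b, a log2 ratio of 6.65. Of the 11624 genes of the comparison set, 85 (0.731%) had a ratio as large. Here and below, open decimal marks of other genes were read at the lowest position for such counts. At the highest position more genes could have a ratio as large, and the counts were not recomputed there. SERPINB5 alone made up 69.2% of the summed TPM of the chromosome 18 members in RC77 T/E.

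SERPINB7 (ENSG00000166396), or megsin, is an epidermal serpin whose loss causes a palmoplantar keratosis, and it lies at chr18:63752935-63805376. RC77 T/E had 54.5 TPM of it, against 0.412 TPM for MDA PCa 2b. The level was 132-fold higher in RC77 T/E, a log2 ratio of 5.30, which 168 genes (1.45%) equalled or passed. SERPINB7 and SERPINB5 were thus both below the threshold for expression in MDA PCa 2b and far above it in RC77 T/E.

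SERPINB8 (ENSG00000166401), an inhibitor of the proprotein convertase furin, lies at chr18:63970029-64019779. It was the chromosome 18 member with the top level in MDA PCa 2b, at 0.824 TPM, and reached 11.4 TPM in RC77 T/E. Its fold difference of 13.8, a log2 ratio of 2.76, was the smallest among the 3 chromosome 18 members above 0 in both lines, and 718 genes (6.18%) had a ratio as large. SERPINB8 shares 11850 bases with HMSD on the same strand, a gene listed at 0 in MDA PCa 2b and at 0.250 TPM for RC77 T/E, so part of its reads may be assigned to either gene.

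SERPINB13 (ENSG00000197641), or headpin, an inhibitor of cathepsins K and L in squamous epithelium, lies at chr18:63586989-63604639. RC77 T/E had 1.27 TPM of it while MDA PCa 2b was listed at 0, so it stood just above the threshold for expression. No fold is given for a gene listed at 0. Its log2 ratio of 1.19 depends on the added 1 TPM, and 1953 genes (16.8%) had a ratio as large.

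The promoters of SERPINB5 and SERPINB7, the chromosome 18 members with the top levels in RC77 T/E, are shown because these genes differed most between the lines on this chromosome. Each is the 250 bases before the RefSeq start (GRCh38.p14), for SERPINB7 the first of its 3 starts. They run 5′ to 3′ on the gene's strand, with CpG dinucleotides in capitals. The SERPINB5 stretch is chr18:63476708-63476957 (plus strand), with 13 CpG, and the SERPINB7 stretch is chr18:63752807-63753056 (plus strand), with 1.
SERPINB5: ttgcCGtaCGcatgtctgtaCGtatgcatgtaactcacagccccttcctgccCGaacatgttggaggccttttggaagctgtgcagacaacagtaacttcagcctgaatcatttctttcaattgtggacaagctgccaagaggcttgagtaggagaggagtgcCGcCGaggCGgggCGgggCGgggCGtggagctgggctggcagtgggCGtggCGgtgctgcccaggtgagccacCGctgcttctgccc
SERPINB7: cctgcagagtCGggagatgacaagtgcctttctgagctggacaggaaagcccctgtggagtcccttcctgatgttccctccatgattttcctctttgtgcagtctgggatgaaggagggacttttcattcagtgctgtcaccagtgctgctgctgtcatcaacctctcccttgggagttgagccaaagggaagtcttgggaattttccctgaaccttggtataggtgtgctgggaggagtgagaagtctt
In the 300-base window from 250 bases before to 50 bases after the start, SERPINB5 had 16 CpG, SERPINB8 had 9, SERPINB13 had 4, SERPINB3 had 3 and SERPINB4 had 2. SERPINB7 has 3 annotated starts, whose windows held 2, 0 and 1 CpG. Over all 35116 promoter windows the median was 14 CpG, with quartiles of 4 and 28. Motifs were searched on both strands of the same windows. The AP-1-type motif TGANTCA, present in 7.71% of all windows, was found in the windows of SERPINB5 (146 bases before the start), SERPINB8 (185 and 28 bases before), SERPINB13 (87 bases before) and in 2 of the 3 SERPINB7 windows. The SERPINB7 window without it is that of the first start, shown here, and which start is used in these lines was not measured. The windows of SERPINB3 and SERPINB4 held neither this motif nor TTCNNNGAA, CCGGAA or TATAAA.

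SERPINB3 and SERPINB4 encode the squamous cell carcinoma antigens, near-identical inhibitors of different proteases: SERPINB3 inhibits lysosomal cysteine proteases such as cathepsins L, S and K, and SERPINB4 inhibits the chymotrypsin-like cathepsin G and mast cell chymase. SERPINB3 (ENSG00000057149) lies at chr18:63655197-63661893 and SERPINB4 (ENSG00000206073) at chr18:63637259-63644256, both on the minus strand. Both were listed at 0 in MDA PCa 2b. In RC77 T/E, SERPINB3 was at 1.06 TPM and SERPINB4 at 0.134 TPM. The log2 ratios, 1.04 for SERPINB3 and 0.18 for SERPINB4, depend on the added 1 TPM and were equalled or passed by 18.7% and 38.1% of the comparison set. Their coding sequences (1170 aligned columns, GENCODE release 29) were 95.2% identical, with 56 substitutions and a longest identical run of 129 bases, whereas the other chromosome 18 pairs were at most 66.4% identical. Reads from the identical runs fit both genes, so the division of the summed level between SERPINB3 and SERPINB4 is uncertain. SERPINB3 also lies wholly within SERPINB11 on the opposite strand, which was listed at 0 in both lines.

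The stretch of 90 coding bases that separates the 2 genes best is shown because it is where these near copies differ most. It covers coding bases 969 to 1058, in the part of the gene towards its 3′ end, at chr18:63655772-63655861 for SERPINB3 and chr18:63637834-63637923 for SERPINB4, both minus strand. Capitals mark the 13 bases that differ, which leaves 85.6% identity.
SERPINB3: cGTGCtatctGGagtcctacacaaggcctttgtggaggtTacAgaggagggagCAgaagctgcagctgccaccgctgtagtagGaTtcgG
SERPINB4: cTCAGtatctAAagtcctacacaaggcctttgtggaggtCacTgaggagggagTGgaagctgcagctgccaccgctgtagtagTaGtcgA
The 250 bases before the start of each gene were more alike still. They differ at 3 bases, in capitals here, an identity of 98.8%, at chr18:63661894-63662143 for SERPINB3 and chr18:63644257-63644506 for SERPINB4 (minus strand, GRCh38.p14).
SERPINB3 promoter: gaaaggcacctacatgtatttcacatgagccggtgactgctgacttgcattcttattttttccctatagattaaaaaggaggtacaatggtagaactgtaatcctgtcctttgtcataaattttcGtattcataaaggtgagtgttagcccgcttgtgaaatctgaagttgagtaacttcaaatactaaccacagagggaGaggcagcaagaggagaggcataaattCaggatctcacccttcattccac
SERPINB4 promoter: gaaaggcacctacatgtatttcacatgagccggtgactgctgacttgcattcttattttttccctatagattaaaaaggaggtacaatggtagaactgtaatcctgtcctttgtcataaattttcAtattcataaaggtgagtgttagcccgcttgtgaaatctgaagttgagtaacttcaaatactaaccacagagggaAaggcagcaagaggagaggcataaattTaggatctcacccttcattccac

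The chromosome 6 members did not share a difference of 2-fold or more. SERPINB1 and SERPINB9 were lower in MDA PCa 2b by as much. SERPINB6 had the higher value there but lay within 2-fold. The median log2 ratio of the 3 members was 1.64, that of SERPINB9.

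SERPINB1 (ENSG00000021355), an inhibitor of neutrophil elastase, cathepsin G and proteinase 3, lies at chr6:2832332-2841959. A level of 24.0 TPM in RC77 T/E stood against 0.0516 TPM in MDA PCa 2b. The fold difference of 465 was the largest among the 6 members above 0 in both lines, and the log2 ratio with 1 TPM added was 4.57, equalled or passed by 249 genes (2.14%). The number of reads behind 0.0516 TPM is unknown, so the fold has no counting interval.

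SERPINB9 (ENSG00000170542), the inhibitor of granzyme B by which lymphocytes and some tumour cells are known to withstand cytotoxic attack, lies at chr6:2887270-2903309. RC77 T/E had 2.17 TPM against 0.0207 TPM for MDA PCa 2b, a ratio of 105 and a log2 ratio of 1.64, which 1466 genes (12.6%) equalled or passed. As for SERPINB1, the number of reads behind the lower value is unknown, so the ratio of 105 has no counting interval. SERPINB9 was thus expressed in RC77 T/E, at a lower level than SERPINB1.

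SERPINB6 (ENSG00000124570), a widely expressed inhibitor of trypsin-like proteases and cathepsin G, lies at chr6:2948159-2972165. Its deposited values fit 2 positions of the decimal mark: either 65.3 TPM for MDA PCa 2b with 51.0 TPM for RC77 T/E, or 653 with 510 TPM. By either reading the level in MDA PCa 2b was 1.28 times that in RC77 T/E, a log2 ratio of -0.35 or -0.36. Taken relative to the median of the comparison set, the log2 ratio was -0.20. By the lower reading SERPINB6 made up 97.3% of the summed TPM of the 9 members in MDA PCa 2b, which was 67.2 TPM, while the sum in RC77 T/E was 299 TPM and SERPINB5 made up 51.4% of it. By the higher reading the sums were 655 and 758 TPM, and SERPINB6 led in both lines, with 99.7% and 67.3%.

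**Figure D2:**
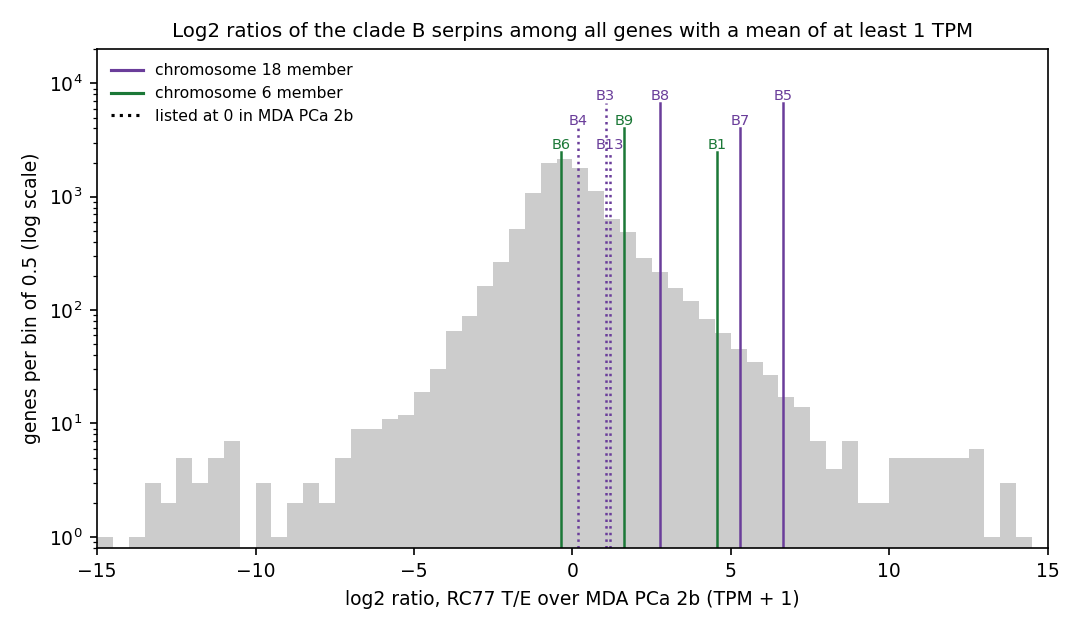
Log2 ratio of RC77 T/E over MDA PCa 2b (1 TPM added, x axis) for the 11624 genes whose mean reached 1 TPM (grey, genes per bin of 0.5, log axis), with a line for each clade B serpin (purple, chromosome 18, and green, chromosome 6, with dotted lines for genes listed at 0 in MDA PCa 2b). SERPINB5 at 6.65, SERPINB7 at 5.30 and SERPINB1 at 4.57 lie in the right-hand tail, and SERPINB6 at -0.35 lies near the centre.

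The promoters of SERPINB1 and SERPINB6 are shown as the chromosome 6 genes with the largest and the smallest difference between the lines. They are the 250 bases before the first RefSeq start, chr6:2841864-2842113 with 21 CpG and chr6:2971568-2971817 with 26 CpG, both minus strand, with CpG in capitals.
SERPINB1: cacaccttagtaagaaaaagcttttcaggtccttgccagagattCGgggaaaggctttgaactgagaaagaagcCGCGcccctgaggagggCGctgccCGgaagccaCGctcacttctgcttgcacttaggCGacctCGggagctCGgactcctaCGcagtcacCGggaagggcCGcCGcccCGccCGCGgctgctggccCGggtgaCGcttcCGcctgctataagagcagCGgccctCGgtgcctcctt
SERPINB6: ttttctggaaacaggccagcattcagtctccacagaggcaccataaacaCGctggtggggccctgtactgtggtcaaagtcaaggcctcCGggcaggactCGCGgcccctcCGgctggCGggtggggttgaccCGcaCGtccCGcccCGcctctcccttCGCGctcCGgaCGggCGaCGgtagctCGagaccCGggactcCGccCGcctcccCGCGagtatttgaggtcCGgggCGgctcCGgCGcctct
The 300-base windows held 27 CpG for SERPINB1, 35 for SERPINB9 and 32 for the first of 4 SERPINB6 starts, whose other windows held 43, 45 and 7. The first windows of the 3 chromosome 6 members thus all held more CpG than those of the 6 chromosome 18 members. Against the upper quartile of 28 CpG over all windows, SERPINB9 and 3 of the 4 SERPINB6 windows lay above it, and SERPINB1 lay just under it. Of the other motifs, CCGGAA (in 17.2% of all windows) was found in the windows of SERPINB1, SERPINB8 and 2 of the 4 SERPINB6 starts. TATAAA (11.5% of windows) was found in SERPINB9, 30 bases before the start, and in windows of SERPINB6, SERPINB7, SERPINB8 and SERPINB13. TTCNNNGAA (7.66% of windows) was found in SERPINB1, SERPINB7 and SERPINB8. A match is a description of the letters, and binding was not measured.

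**Figure D3:**
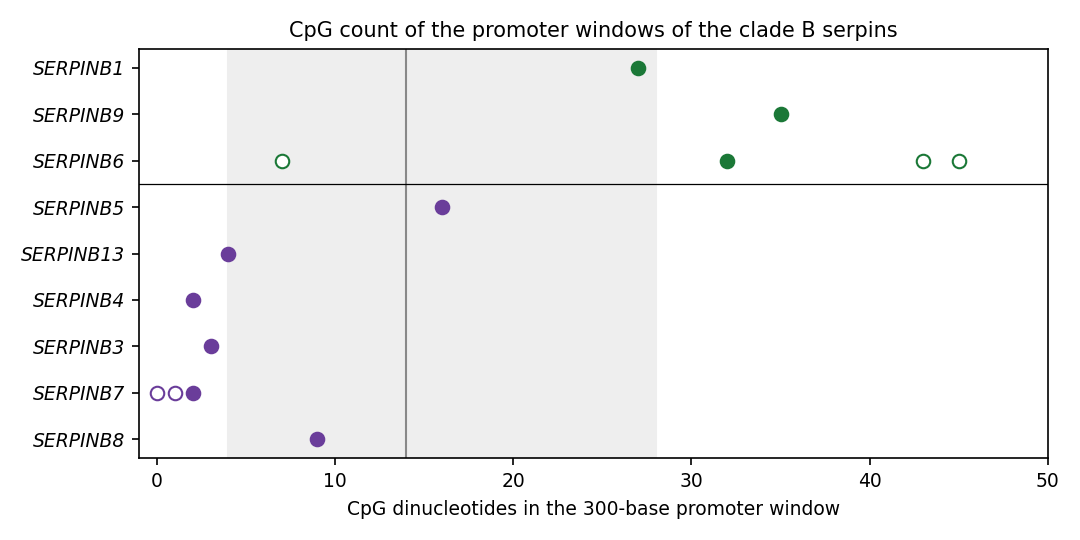
CpG dinucleotides in the 300-base promoter window of each clade B serpin (x axis), filled for the first annotated start and open for further starts. The grey band spans the quartiles of all 35116 promoter windows (4 to 28) and the line their median of 14. The filled points of the 3 chromosome 6 members (green, 27 to 35) lie to the right of those of the 6 chromosome 18 members (purple, 2 to 16).

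In coding sequence the members of a cluster were not uniformly closer to each other than to members of the other cluster. The median identity was 55.7% over the 15 chromosome 18 pairs, 58.6% over the 3 chromosome 6 pairs and 55.7% over the 18 pairs across chromosomes. SERPINB8 on chromosome 18 and SERPINB9 on chromosome 6 shared 72.7% of aligned bases, the top value for a pair across chromosomes, and SERPINB8 and SERPINB6 shared 67.3%.

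Neighbouring genes were examined to see whether the difference extended past the serpins. The chromosome 18 members span 543 kb, and 5 other genes started within 500 kb of the span, clade B genes left out. Values of 2 libraries below are in the order MDA PCa 2b, RC77 T/E. Of the 2 in the comparison set, VPS4B, an ATPase of endosomal sorting, was at 16.0 and 35.5 TPM (or 10 times both), a log2 ratio of 1.10. KDSR, an enzyme of sphingolipid synthesis, was at 10.0 and 19.1 TPM (or 10 times both), a log2 ratio of 0.87. BCL2, which restrains apoptosis, was at 1.39 and 0.178 TPM, the opposite direction. HMSD is given above, and LINC00305 was listed at 0 in both lines. Among further clade B genes of the cluster, which are not members, SERPINB10 was listed at 0 and 0.530 TPM, SERPINB12 at 0 and 0.0712 TPM, and SERPINB11 at 0 in both.

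The chromosome 6 members span 140 kb, with 12 other genes starting within 500 kb of the span. Of the 8 in the comparison set, 0 were higher in RC77 T/E by 2-fold or more (19.4% of the whole set). In MDA PCa 2b 3 were higher by as much (20% of the whole set). The other 5 lay within 2-fold, and the median log2 ratio of the 8 was -0.36. SLC22A23, a member of a transporter family, was 9.48-fold higher in MDA PCa 2b (63.7 against 6.72 TPM, or 10 times both). NQO2, a quinone reductase, was 4.82-fold higher (5.07 against 1.05 TPM, or 10 times both) and BPHL, a hydrolase, 2.59-fold higher (19.1 against 7.39 TPM, or 10 times both). RIPK1, a kinase of death receptor signalling, was at 8.36 and 6.55 TPM. TUBB2A, a tubulin gene, was at 5.30 and 8.77 TPM (or 10 times both), a log2 ratio of 0.63. With 8 genes, a count of 0 cannot be set apart from a share of 19.4%. Whether the difference of SERPINB1 and SERPINB9 stops at these serpins was not tested.

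**Figure D4:**
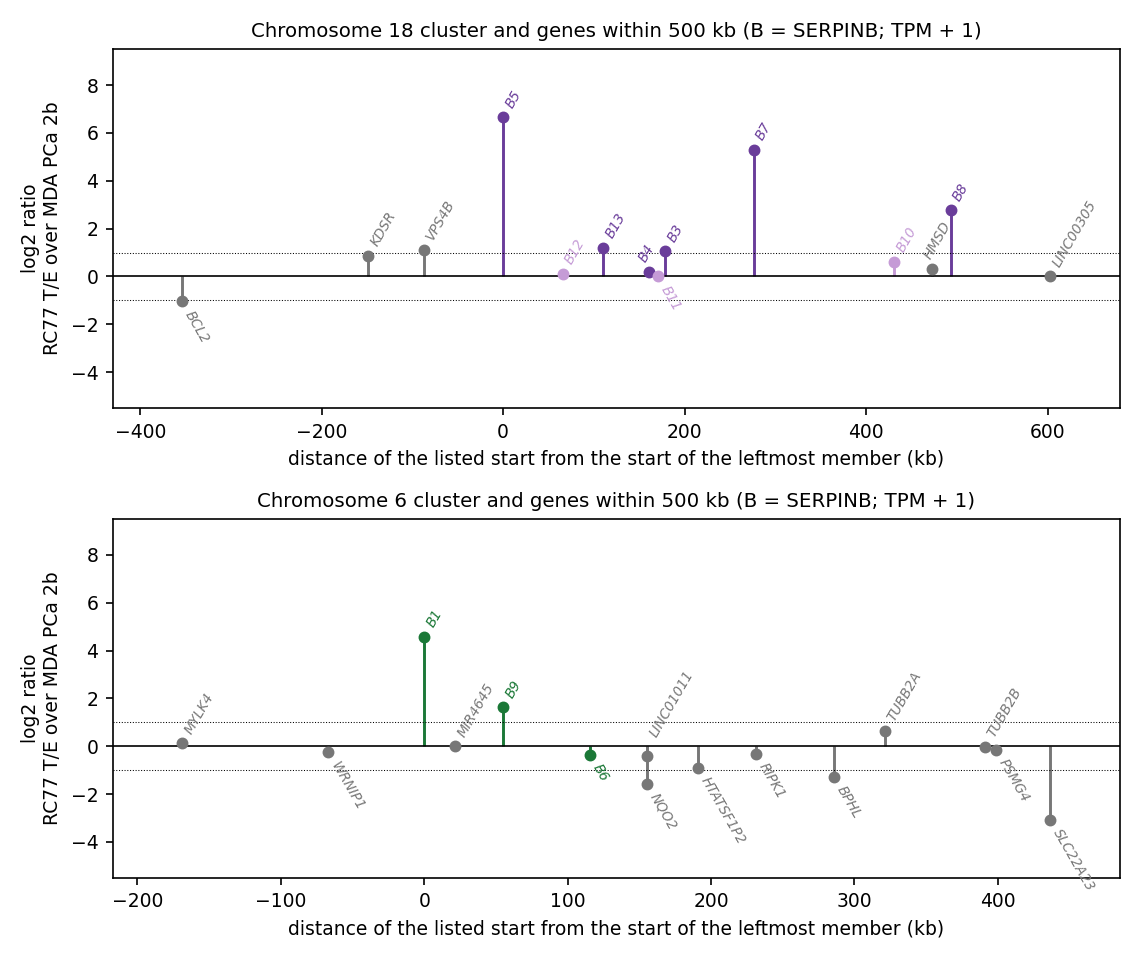
Log2 ratio of RC77 T/E over MDA PCa 2b (1 TPM added, y axis) against the distance of each gene's listed start from the start of the leftmost member (kb), for the chromosome 18 cluster (top) and the chromosome 6 cluster (bottom). Members are in purple and green, further clade B genes in light purple, other genes within 500 kb in grey, and dotted lines mark a 2-fold difference. SERPINB5, SERPINB7 and SERPINB8 rise above their neighbours, and SERPINB1 and SERPINB9 stand above neighbours that all lie under the upper dotted line.

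The proteases that clade B serpins are known to inhibit were given by a list of 12 genes. MDA PCa 2b expressed 3 of them and RC77 T/E 5. By 2-fold or more, MDA PCa 2b was higher for 1 and RC77 T/E for 2, against 11.4% and 11.3% of all genes. The median log2 ratio was 0.0056, but the added 1 TPM holds the ratio of genes near 0 TPM in both lines close to 0. The 5 proteases in the comparison set had log2 ratios of 4.69 (CTSV), 1.48 (CTSS), 0.29 (CTSL), 0.06 (CTSK) and -1.15 to -1.39 (FURIN). CTSL, encoding the lysosomal cathepsin L that SERPINB3 and SERPINB13 inhibit, was at 51.4 and 63.0 TPM. CTSV, encoding the closely related cathepsin V of thymus and epidermis, was at 0.138 and 28.3 TPM, 205-fold higher in RC77 T/E. CTSS, encoding cathepsin S, was at 0.190 and 2.32 TPM, 12.2-fold higher in RC77 T/E, and CTSK at 2.10 and 2.23 TPM.

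FURIN, encoding the protease that SERPINB8 inhibits, was 2.62-fold higher in MDA PCa 2b, the reverse of SERPINB8. Its values fit 3 positions of the decimal mark, from 8.16 and 3.11 TPM to 816 and 311 TPM. GZMB, encoding the granzyme B that SERPINB9 inhibits, was at 0.0141 and 0.0221 TPM. ELANE and CTSG, encoding the elastase and cathepsin G that SERPINB1 inhibits, and CMA1, encoding chymase, were listed at 0 in both lines, and PRTN3 was at 0.0229 TPM and listed at 0. The granule proteases were thus below the threshold for expression in both lines, while the lysosomal cathepsins L and K were above it in both. KLK8, a skin kallikrein that SERPINB6 is known to inhibit, was listed at 0 and at 0.163 TPM, and F2, encoding prothrombin, was at 0.0383 and 0.0345 TPM.

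Serpins of other clades, most of them secreted, were given by a list of 14 genes. MDA PCa 2b expressed 2 of them and RC77 T/E 8. By 2-fold or more, MDA PCa 2b was higher for 0 and RC77 T/E for 6, against 11.4% and 11.3% of all genes. The median log2 ratio was 0.76. SERPINE2, protease nexin-1, was at 0.523 and 77.8 TPM, a 149-fold ratio. SERPINA1, alpha-1-antitrypsin, was at 0.400 and 14.2 TPM, a 35.4-fold ratio. SERPINH1, the collagen chaperone HSP47, was at 4.04 and 21.8 TPM (or 10 times both). SERPINC1, antithrombin, was at 0.328 and 0.0771 TPM, with the higher value in MDA PCa 2b. Of the 7 serpins of other clades in the comparison set 6 were thus past 2-fold in the direction of SERPINB5, and whether clade B differed from the other clades could not be tested.

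**Figure D5:**
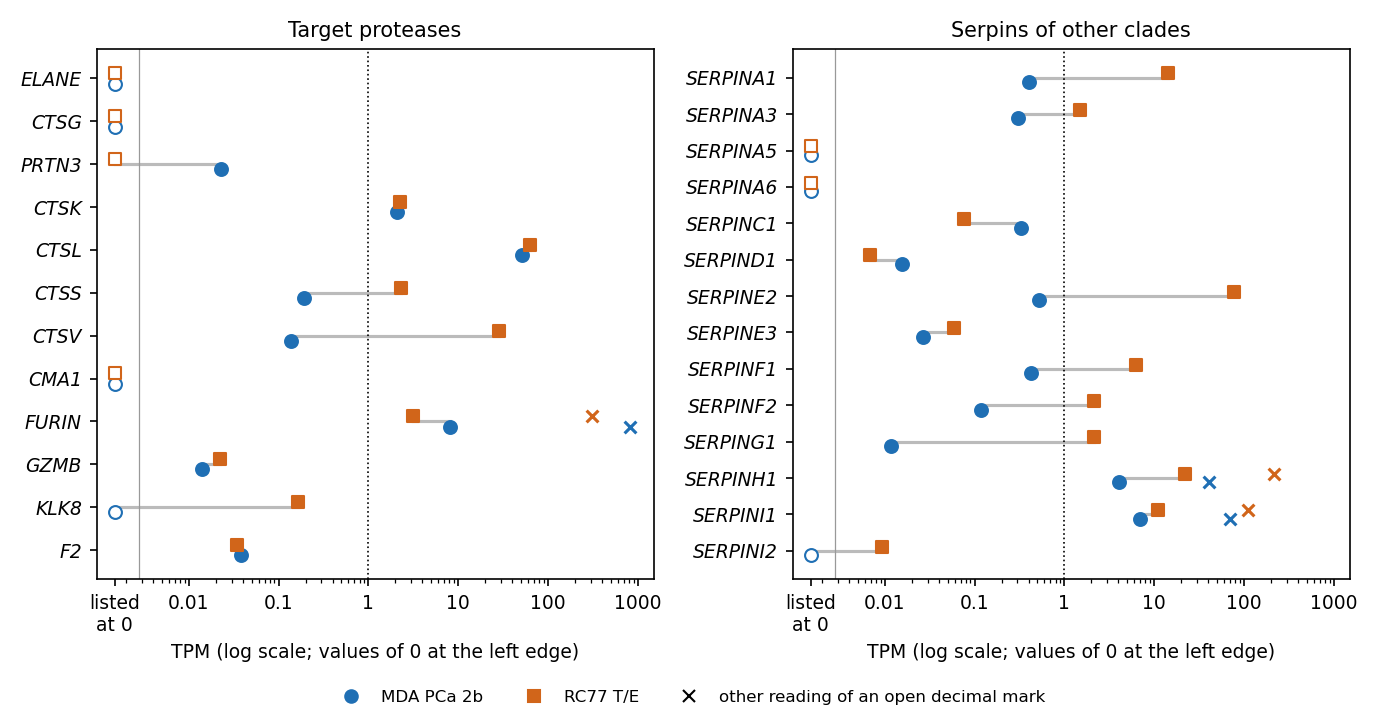
TPM (log axis) in MDA PCa 2b (circles) and RC77 T/E (squares), 1 library each, of the target proteases (left) and of the serpins of other clades (right). Open symbols at the left edge are values listed at 0, the dotted line marks 1 TPM and crosses give the top reading where the decimal mark is not determined. CTSV, CTSS, SERPINE2 and SERPINA1 show wide gaps with the square to the right, and FURIN has the circle to the right.

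Basal epithelial markers were higher in RC77 T/E, as most clade B serpins were, while the luminal markers were divided. Of 6 basal epithelial markers, 6 were higher in RC77 T/E by 2-fold or more. KRT5, a basal keratin, was at 0.00435 and 4027 TPM, KRT14 at 37.4 and 3255 TPM, and LAMB3, a laminin chain of the basement membrane, at 0.195 and 1702 TPM. Summed over the list the level was 44.6 TPM for MDA PCa 2b, against 9723 to 9770 TPM for RC77 T/E. Of 4 luminal markers, 2 were lower in RC77 T/E by 2-fold or more, among them KLK3, the prostate-specific antigen gene, which had 5323 TPM in MDA PCa 2b but was listed at 0 in RC77 T/E. TMPRSS2, a membrane protease of luminal prostate cells, was at 483 and 0.108 TPM. RC77 T/E was thus below the threshold for expression of these defining markers of luminal prostate, while KRT18 was at 320 and 325 TPM. The part of this marker difference in the levels of the serpins was not tested.

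Several members, SERPINB1, SERPINB6 and SERPINB9 among them, are also known from leukocytes. Of 6 leukocyte markers, MDA PCa 2b expressed 0 and RC77 T/E 1, CD14 at 4.92 TPM. The summed level was 0.629 and 4.93 TPM. PTPRC, which encodes the pan-leukocyte surface protein CD45, had 0.0113 TPM in MDA PCa 2b but was listed at 0 in RC77 T/E, and LYZ and SPI1 were also listed at 0 in RC77 T/E, where SERPINB1 and SERPINB9 were expressed. The 3 endothelial markers were at most 0.191 TPM in either line. Of 3 fibroblast markers, COL1A1 was at 0.554 and 8.24 TPM, while COL3A1 was listed at 0 and DCN was at 0.0531 TPM in RC77 T/E.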

How the data were processed

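The authors sequenced total RNA of 2 untreated lines, RC77 T/E and MDA PCa 2b, from directional paired-end libraries, 1 per line. Per the labels, processing used CASAVA, FastQC 0.11.9, Trimmomatic 0.38 and Salmon 1.2.0 with GRCh38. The row identifiers have the form of Cufflinks loci, so which program made the TPM values, and how it divided reads shared by near copies or came to list a gene at 0, is not known. The authors deposited TPM per locus, with their mean and standard error. Read counts were not used here, so the depth and the precision it gives are unknown. Whether strand was used in quantification is not given in the sources used here.

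In 10361 values of MDA PCa 2b and 11082 of RC77 T/E the decimal mark was missing. It was restored where the deposited mean and standard error matched as written. After this step 16212 of 22704 loci had 1 position and 6492 had 2 or 3. The 16212 include loci whose values had kept their mark, so the share left open among restored loci was larger than these counts give. The lowest position was used, and for the levels of named genes the highest is given where it differs. Shares, medians and counts over all genes or over the comparison set used the lowest position only. A ratio can be larger at the highest position, as for TP63, with a log2 ratio of 2.63 at the lowest and 5.72 at the highest. The design had assumed plain TPM. In a test on 5000 simulated rows, 3588 had 1 position, the true one in 3588. The rows were simulated with the writing rules that the restoration assumes. The test therefore cannot show whether the deposited values follow those rules. The library totals of the restored values were 751124.9 and 682469.0 TPM at the lowest positions and 2416345.6 and 2140325.7 at the highest, so the totals are not determined. Loci of one symbol were summed. In MDA PCa 2b 5775 genes were listed at 0, in RC77 T/E 5729. A listed 0 can be a failed estimate, and whether this holds for the members listed at 0 was not tested. Of 75 ribosomal protein genes 1, RPL10L, was listed at 0 in either line. These genes do not decide the question for other genes.

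The members, gene lists, motifs and alternatives were chosen with earlier results of these data known. Every member and every gene of the lists, or within 500 kb of a cluster, could be named. Besides the lists in the text there was a list of regulators. No test was run. The alternatives were other TPM thresholds, another pseudocount, centring, upper-quartile scaling and the highest position of the mark. Further alternatives were the largest locus of a symbol in place of the sum, all genes above 0 and a wider window. Promoters came from RefSeq (GRCh38.p14), and coding sequences, strands and overlaps from GENCODE release 29, in which all 9 members matched by Ensembl identifier. The median over members above 0 in both lines was chosen after seeing the data. Not every gene of the chromosome 18 cluster was analysed here, and a few further genes of the lists are not reported and were left out of their counts and medians. Python 3.11.15, numpy 2.4.6, Biopython 1.88 and matplotlib 3.10.9 were used.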

Additional observations from a re-analysis of the deposited data

How the results depend on the processing

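With 1 library per line, depth unknown and the decimal mark not determined for SERPINB6, FURIN and several neighbours, the values carry no error. No paired analysis was possible because both lines had 1 library each. No member's log2 ratio changed sign under the alternatives run. Of 45 log2 ratios of members recomputed under other settings, 37 moved by less than 1.5 times and 8 by more. The 37 include values that could not move. Taking the largest locus of a symbol left every member as it was, and the highest position of the mark can change SERPINB6 only. Among the 8, with a pseudocount of 0.1 TPM, SERPINB3 was at 3.54, SERPINB4 at 1.23, SERPINB13 at 3.78, SERPINB1 at 7.31 and SERPINB9 at 4.23. Centred on the median of the comparison set, SERPINB4 was at 0.33 and SERPINB6 at -0.20. Scaled to the upper quartile, SERPINB6 was at -0.21. At 0.5 TPM, 3 members were expressed in MDA PCa 2b in place of 1, and at 5 TPM, 5 in RC77 T/E in place of 8, also with the highest position of the mark. The median log2 ratio of the chromosome 18 members was 3.71 with a pseudocount of 0.1 TPM and 5.30 over members above 0 in both lines, and that of the chromosome 6 members 4.23 with a pseudocount of 0.1 TPM. Near the chromosome 18 cluster, 2 genes in place of 1 were higher in RC77 T/E by 2-fold or more after centring or upper-quartile scaling, and 1 in place of 0 was at least 2-fold higher in MDA PCa 2b with all genes above 0 included. Near the chromosome 6 cluster, 1 in place of 0 was higher in RC77 T/E within 1000 kb. With a pseudocount of 0.1 TPM, 1 serpin of another clade in place of 0 was at least 2-fold higher in MDA PCa 2b.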

Other observations

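A list of 5 transcription factors that act in epithelia was not part of the comparisons above, except for TP63. That gene is also 1 of the 6 basal markers and was counted there. MDA PCa 2b expressed 3 of them and RC77 T/E 4. By 2-fold or more, MDA PCa 2b was higher for 2 and RC77 T/E for 1, TP63, with a median log2 ratio of -0.10. Values are in the order MDA PCa 2b, RC77 T/E. TP63, which encodes the basal epithelial factor p63, was listed at 0 and at 5.17 TPM (or 51.7 TPM by the other position of the mark). SPDEF, which encodes an ETS factor of luminal and secretory epithelia, was at 236 and 0.656 TPM, 359-fold higher in MDA PCa 2b. ELF3, an epithelial ETS factor, was 21.7-fold higher in MDA PCa 2b, at 43.4 and 2.00 TPM (or 10 times both). STAT3, a factor activated by cytokine and growth factor receptors, was at 25.6 and 23.8 TPM, and TP73 at 0.395 and 1.28 TPM. The part of these factors in the levels of the serpins was not tested.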
